A study of Homo sapiens with 9 samples.

Results

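The genes described here are 10 chemokine genes, namely CXCL1, CXCL2, CXCL3, CXCL5, CXCL6, CXCL8, CXCL16, CCL5, CCL20 and CX3CL1. They were taken by gene name from the count tables of MDA-MB-231, an established cell line of triple-negative breast cancer. They are 10 of the 58735 genes in the tables, and 34018 of these had any count. RNA was sequenced from cells given vehicle (DMSO), from cells surviving increased concentrations of erastin (erastin-R) and from cells surviving increased concentrations of RSL3 (RSL3-R), with 3 libraries in each group. Erastin blocks cystine uptake by system xc-, and RSL3 inhibits the lipid peroxidase GPX4. Both compounds induce ferroptosis, an iron-dependent cell death driven by lipid peroxides. The sample labels name the drug only, and the series' design text calls the drug-treated groups resistant. The study's methods describe resistant lines raised by reculturing survivors under stepwise higher drug, with no cloning step stated. The paper introduces resistant lines after the sequencing, as a test of the hypothesis drawn from it. Whether the sequenced cells are those lines is not stated outright in the sources used here. The sequenced cells are called survivors below. All groups come from the same line, and it was grown in culture. The sources used here do not say that replicates were separate cultures, so p values measure the spread between these libraries, which may be technical.

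Chemokines are small secreted proteins that guide leukocytes through G protein-coupled receptors. CXCL1, CXCL2, CXCL3, CXCL5, CXCL6 and CXCL8 (interleukin-8) act mainly through CXCR2, with CXCR1 for CXCL6 and CXCL8, and recruit neutrophils. CCL20 attracts CCR6-bearing lymphocytes and dendritic cells, CCL5 attracts T cells and monocytes, and CXCL16 and CX3CL1 are made as membrane-anchored proteins that can be shed. In epithelial and carcinoma cells the neutrophil-attracting members and CCL20 are classical targets of NF-κB, AP-1 and C/EBP factors downstream of interleukin-1 and TNF.

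The 6 neutrophil-attracting CXC genes lie in 1 cluster on chromosome 4 (GRCh38 coordinates), from the start of CXCL8 at 73740506 to the end of CXCL2 at 74099293, a span of 358.787 kb. CXCL8 (73740506 to 73743716), CXCL6 (73836497 to 73849064) and CXCL1 (73869393 to 73871242) are on the plus strand. CXCL5 (73995642 to 73998779), CXCL3 (74036589 to 74038807) and CXCL2 (74097035 to 74099293) are on the minus strand. CCL20 is on chromosome 2 (227805739 to 227817564, plus strand), CXCL16 and CCL5 on chromosome 17 (4733526 to 4739922 and 35871491 to 35880793, both minus strand) and CX3CL1 on chromosome 16 (57372458 to 57385048, plus strand). All 10 are protein-coding, and the counts are of reads in their exons.

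The sequences just upstream of the genes are shown because CXCL1 and CXCL3, with near-identical promoters, had different levels in the libraries. CXCL5 and CXCL6, also near-identical to each other, were both at or near the limit of detection. A RefSeq promoter (GRCh38.p14) was found for 7 of the 10 members, CXCL1, CXCL2, CXCL3, CXCL5, CXCL6, CXCL8 and CCL20. Each line gives the 130 bases that end just before the RefSeq start, 5′ to 3′ on the strand of the gene. Capitals mark matches to a κB consensus of 10 bases or to GGAATTTCC, which overlap where both are present, and to TATAAA.
CXCL8 (chr4:73740439-73740568, + strand): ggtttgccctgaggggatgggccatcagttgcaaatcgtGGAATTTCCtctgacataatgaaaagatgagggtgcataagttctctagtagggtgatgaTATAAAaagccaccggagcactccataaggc
CXCL1 (chr4:73869263-73869392, + strand): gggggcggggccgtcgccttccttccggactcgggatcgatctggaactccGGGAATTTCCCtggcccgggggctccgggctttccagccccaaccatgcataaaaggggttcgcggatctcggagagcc
CXCL2 (chr4:74099196-74099325, - strand): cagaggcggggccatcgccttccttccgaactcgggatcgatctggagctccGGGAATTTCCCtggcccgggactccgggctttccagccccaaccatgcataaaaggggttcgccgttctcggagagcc
CXCL3 (chr4:74038690-74038819, - strand): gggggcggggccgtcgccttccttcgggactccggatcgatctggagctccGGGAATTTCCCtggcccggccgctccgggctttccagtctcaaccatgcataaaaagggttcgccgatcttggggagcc
CXCL5 (chr4:73998678-73998807, - strand): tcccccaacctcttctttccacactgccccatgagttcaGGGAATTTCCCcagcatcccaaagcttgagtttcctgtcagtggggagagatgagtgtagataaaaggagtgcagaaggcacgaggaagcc
CXCL6 (chr4:73836548-73836677, + strand): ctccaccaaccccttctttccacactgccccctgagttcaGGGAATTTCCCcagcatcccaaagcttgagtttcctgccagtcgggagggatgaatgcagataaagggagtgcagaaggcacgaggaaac
CCL20 (chr2:227813712-227813841, + strand): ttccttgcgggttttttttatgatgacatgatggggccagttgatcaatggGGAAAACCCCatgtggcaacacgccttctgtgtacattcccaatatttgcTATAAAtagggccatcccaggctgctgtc

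GGAATTTCC, the form of the κB site known from the CXCL8 promoter, was present in all 6 promoters of the chromosome 4 cluster, with its first base 77 to 91 bases upstream of the start. It was not in the CCL20 window. Among 35116 RefSeq promoters searched over 250 bases on both strands, 145 (0.413%) held it. The κB consensus matched in 6 of the 7 members, all but CXCL8, against 9.96% of all promoters. TATAAA was found in CXCL8 and CCL20, against 10.7% of all promoters. TGANTCA, the core bound by AP-1, was found in CXCL8 only, 137 to 131 bases upstream and so outside the printed window, against 6.57% of promoters. TTGCNNAA, a C/EBP-like motif, was found in CXCL2 only, 188 to 181 bases upstream, against 9.05%. The CXCL8 line holds ttgcaaat shortly before GGAATTTCC. It differs from TTGCNNAA at the last base only and was not counted, so the search does not show that CXCL8 lacks such a site. These matches describe letters and do not show binding.

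Over the 89 bases centered on GGAATTTCC, compared without gaps, CXCL1 and CXCL3 were 92.1% identical and CXCL5 and CXCL6 were 93.3% identical. CXCL2 shared 75.3% with CXCL1 and 70.8% with CXCL3. These values understate the likeness of CXCL2, whose site began 77 bases upstream, against 78 in CXCL1 and CXCL3. The CXCL2 line is a base shorter soon after the site, so that the following bases were compared out of register. CXCL8 was 24.7% to 34.8% identical to the other 5. RefSeq starts differed from the gene starts of the count tables by 0 to 181 bases for the chromosome 4 genes, and by 8103 bases for CCL20, whose annotated gene begins farther upstream.

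Total counts ranged from 15405102 to 17273464 per library, so that 3 counts, the limit that a count of 0 allows, corresponded to 0.174 to 0.195 CPM (counts scaled to the total of the library). Pearson correlations over genes were 0.986 to 0.992 within groups and 0.959 to 0.972 between groups, and no pair of libraries held identical counts. The 6 MDA-MB-231 markers summed to 3418 to 3489 CPM in vehicle, 3522 to 3750 in erastin-R and 3615 to 3693 in RSL3-R libraries. The 4 luminal markers summed to 6.68 to 8.58, 6.87 to 9.24 and 4.97 to 8.08 CPM in these groups, with GATA3 at 54 to 117, FOXA1 at 13 to 38, ESR1 at 1 to 12 and PGR at 0 to 2 counts per library. The 8 leukocyte markers summed to 13.4 to 15.5 CPM in vehicle, 3.75 to 5.12 in erastin-R and 7.64 to 8.12 in RSL3-R libraries, with CSF1R at 29 to 176, CD14 at 20 to 66, PTPRC at 3 to 24 and CD3E at 0 to 4 counts. CSF1R was called lower in erastin-R and RSL3-R cells compared with vehicle (log2 fold changes of -2.17 and -2.04), CD14 was called lower in erastin-R cells (-1.23) and PTPRC was called higher in RSL3-R cells (1.67). The 6 endothelial and fibroblast markers summed to 17.5 to 18.9, 8.02 to 9.73 and 22.7 to 26.2 CPM, with PECAM1 at 20 to 222, PDGFRB at 96 to 191, DCN at 1 to 18, CDH5 at 0 to 3 and LUM at 0 to 2 counts. PECAM1 was called lower in erastin-R cells than in vehicle (-2.47) and higher in RSL3-R than in erastin-R cells (2.83), and DCN was called lower in both survivor groups than in vehicle. The summed leukocyte, endothelial and fibroblast levels are of the size of those of several chemokines below. None of the markers was at 0 in all 9 libraries. The part of these differences in the results below was not tested.

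CXCL5, CXCL6 and CX3CL1 had fewer than 10 counts in every library. The other 7 members passed the filter on low counts and were tested with edgeR's quasi-likelihood test in 1 model of all 9 libraries. CPM in the tests and means was scaled by edgeR's TMM factors. A gene was called when its log2 fold change was 1 or more in size and its adjusted p was under 0.05 over the 16188 genes tested. Erastin-R and RSL3-R cells were both compared with the same vehicle libraries, and RSL3-R cells also with erastin-R cells. In erastin-R cells compared with vehicle, 3 members (CXCL8, CXCL2 and CCL20) rose and 1 (CXCL16) fell, a background in which 13.4% of all tested genes were called, 6.7% higher and 6.66% lower. In RSL3-R cells compared with vehicle, 5 members (CXCL8, CXCL2, CXCL1, CCL20 and CXCL3) rose and none fell, where 10.1% of tested genes were called, 6.02% higher and 4.08% lower. In RSL3-R compared with erastin-R cells, 4 members (CXCL1, CXCL16, CXCL8 and CXCL2) were higher and none lower, where 10.3% were called, 6.86% higher and 3.48% lower. By the adjusted p alone, without the fold minimum, 4 members were higher and 1 lower in erastin-R cells (54% of tested genes, 27.1% higher and 26.8% lower), 5 higher and 0 lower in RSL3-R cells (48.7%, 23.8% and 24.9%), and 4 higher and 0 lower between the survivor groups (49.2%, 22.3% and 26.9%). The median log2 fold change of the 7 tested members was 0.73, 1.54 and 1.07 in these comparisons, beside -0.0042, 0.0052 and -0.024 over all tested genes.

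**Figure D1:**
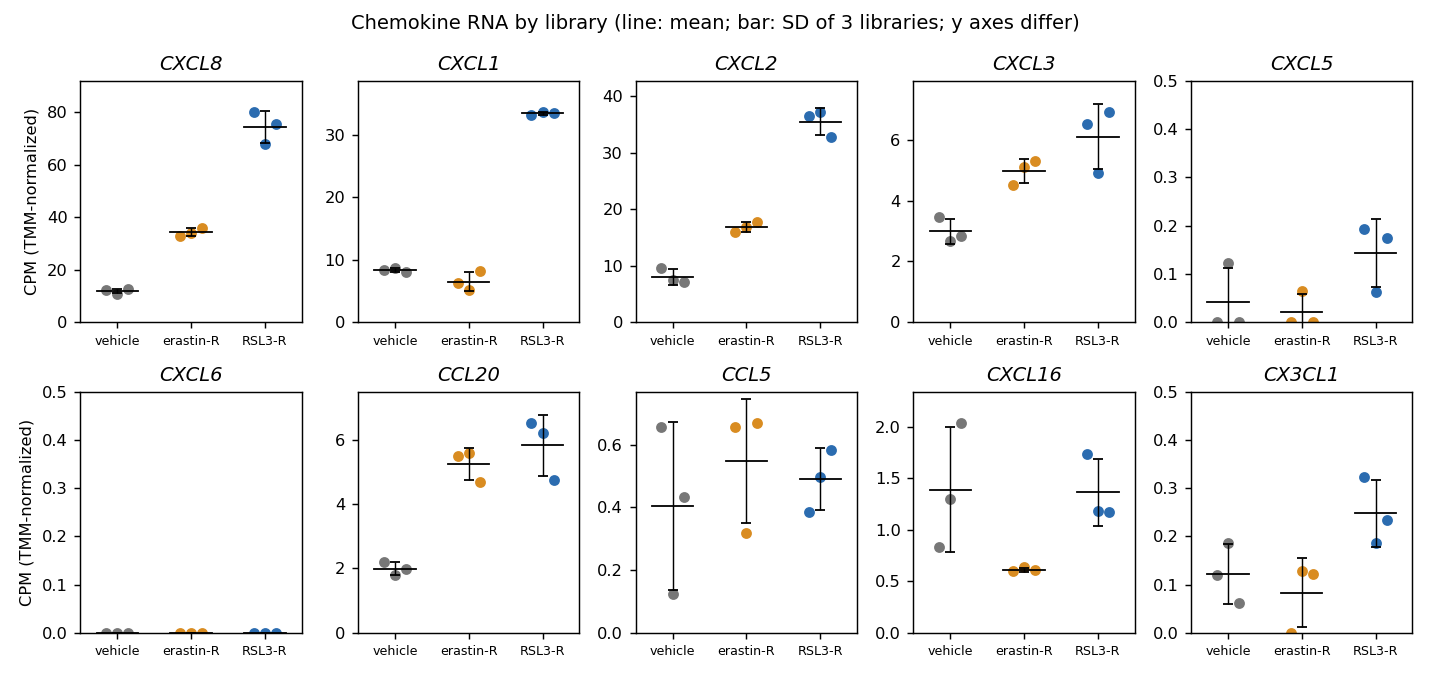
CPM (TMM-scaled, y axis) of each of the 10 chemokine genes in every library, by group on the x axis, with points for libraries, a line for the mean and bars for the SD (n = 3). CXCL8 and CXCL2 step up from vehicle to erastin-R to RSL3-R, CXCL1 is high in RSL3-R only, and CXCL5, CXCL6 and CX3CL1 lie near 0.

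CXCL8, the prototypical neutrophil chemokine, had 204, 175 and 204 counts in the vehicle libraries, 553, 536 and 589 in erastin-R and 1240, 1094 and 1293 in RSL3-R. The groups did not overlap, and every erastin-R library lay between the vehicle and the RSL3-R libraries. Its mean was 11.9 ± 0.928 CPM in vehicle, 34.3 ± 1.44 in erastin-R and 74.5 ± 6.05 in RSL3-R libraries (SD, n = 3). On the log2 scale, CXCL8 rose by 1.53 in erastin-R cells (SE 0.09, edgeR adjusted p = 1.75e-08) and by 2.65 in RSL3-R cells (SE 0.09, adjusted p = 9.09e-11). It was also higher in RSL3-R than in erastin-R cells, by 1.12 (SE 0.08, adjusted p = 1.81e-07). In these bulk libraries, more expressing cells and more RNA per cell cannot be told apart.

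CXCL2, a ligand of CXCR2, had 161, 120 and 114 counts in vehicle, 269, 265 and 292 in erastin-R and 568, 598 and 561 in RSL3-R libraries. As for CXCL8, the 3 groups did not overlap. Its mean went from 8.01 ± 1.39 CPM in vehicle to 16.9 ± 0.865 in erastin-R and 35.5 ± 2.39 in RSL3-R libraries. Compared with vehicle, the log2 fold change was 1.07 for erastin-R (SE 0.12, edgeR adjusted p = 6.29e-06) and 2.15 for RSL3-R (SE 0.12, adjusted p = 6.07e-09). RSL3-R exceeded erastin-R cells by 1.07 (SE 0.11, adjusted p = 3.73e-06). The call in erastin-R cells was close to the fold minimum, at 0.98 without vehicle replicate 3.

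CXCL1, a close relative of CXCL2 and CXCL3 and another CXCR2 ligand, had 141, 141 and 130 counts in vehicle, 104, 80 and 135 in erastin-R and 516, 541 and 574 in RSL3-R libraries. The erastin-R libraries overlapped those of vehicle, and the RSL3-R libraries lay far above both. The means were 8.38 ± 0.345, 6.50 ± 1.58 and 33.5 ± 0.187 CPM. CXCL1 in RSL3-R cells rose by 2.0 on the log2 scale compared with vehicle (SE 0.13, edgeR adjusted p = 3.56e-08) and was higher than in erastin-R cells by 2.36 (SE 0.14, adjusted p = 1.82e-08). In erastin-R cells compared with vehicle the log2 fold change was -0.36 (SE 0.15, adjusted p = 0.0501), which was not called. Over 15 alternative settings and left-out libraries this value ranged from -0.57 to -0.22, and its adjusted p from 0.00313 to 0.211, under the threshold in 4 of the 15. Where CXCL8 and CXCL2 rose in both survivor groups, CXCL1 rose in RSL3-R cells and had a negative, uncalled value in erastin-R cells.

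CXCL3, the third of these closely related genes, had 58, 43 and 46 counts in vehicle, 76, 80 and 87 in erastin-R and 101, 79 and 118 in RSL3-R libraries. Both survivor groups lay above vehicle without overlap, and they overlapped each other. Means were 2.98 ± 0.421, 4.97 ± 0.395 and 6.11 ± 1.05 CPM. CXCL3 rose in RSL3-R cells by 1.03 on the log2 scale (SE 0.18, edgeR adjusted p = 0.000337). Its value in erastin-R cells was 0.73 (SE 0.19, adjusted p = 0.00417), below the fold minimum, and the survivor groups differed by 0.30 (SE 0.17, adjusted p = 0.165). The RSL3-R call was close to the fold minimum, with values of 0.95 and 0.99 without vehicle replicates 2 and 3, 0.97 without RSL3-R replicate 3 and 0.93 with quantile normalization.

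CCL20, the ligand of CCR6, had 37, 29 and 32 counts in vehicle, 92, 88 and 77 in erastin-R and 101, 100 and 81 in RSL3-R libraries. Every survivor library exceeded every vehicle library, while erastin-R and RSL3-R libraries overlapped. The means were 1.99 ± 0.208, 5.25 ± 0.499 and 5.82 ± 0.952 CPM. CCL20 rose by 1.40 in erastin-R cells (SE 0.19, edgeR adjusted p = 3.27e-05) and by 1.54 in RSL3-R cells (SE 0.19, adjusted p = 1.43e-05) on the log2 scale. The difference between the survivor groups was 0.15 (SE 0.17, adjusted p = 0.496), a size that the spread does not separate from 0.

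**Figure D2:**
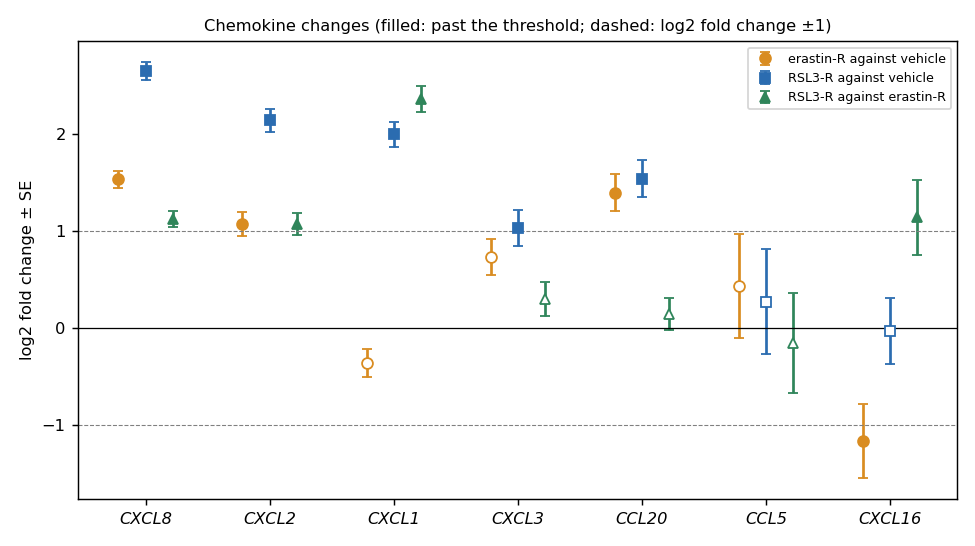
Log2 fold change (y axis) with its standard error (bars) for the 7 tested members (x axis) in erastin-R against vehicle, RSL3-R against vehicle and RSL3-R against erastin-R, with filled symbols for called genes. CXCL8 and CXCL2 are called in all 3 comparisons, whereas CXCL1 has a value of -0.36 for erastin-R and 2.0 for RSL3-R against vehicle.

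CXCL16, a transmembrane chemokine that binds CXCR6 and can be shed, had 14, 21 and 33 counts in vehicle, 10, 10 and 10 in erastin-R and 27, 19 and 20 in RSL3-R libraries. The erastin-R libraries lay below all others, and vehicle and RSL3-R libraries overlapped. Its mean was 1.39 ± 0.606 CPM in vehicle, 0.613 ± 0.0209 in erastin-R and 1.36 ± 0.327 in RSL3-R libraries. CXCL16 fell by 1.17 on the log2 scale in erastin-R cells (SE 0.38, edgeR adjusted p = 0.0193) and was higher in RSL3-R than in erastin-R cells by 1.14 (SE 0.38, adjusted p = 0.0245). The value in RSL3-R cells compared with vehicle was -0.03 (SE 0.34, adjusted p = 0.954). These calls rested on few counts. The first became -0.79 (adjusted p = 0.118) without vehicle replicate 3 and -1.16 (adjusted p = 0.0503) without erastin-R replicate 3. The second was lost under 4 of 15 alternatives, with values of 0.86 to 1.16 and adjusted p of 0.0556 to 0.0961. Exons of CXCL16 overlap those of MED11 by 85 bases, 3.04% of its exonic length.

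CCL5 (RANTES) had 11, 2 and 7 counts in vehicle, 11, 5 and 11 in erastin-R and 6, 8 and 10 in RSL3-R libraries. The 3 groups overlapped. Log2 fold changes were 0.43 (SE 0.53), 0.27 (SE 0.54) and -0.16 (SE 0.52), with edgeR adjusted p of 0.516, 0.707 and 0.819, and differences of this size were not detectable at this depth. The value for erastin-R was 0.96 without vehicle replicate 1 and 0.0089 without vehicle replicate 2.

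The remaining members were at or near the limit of detection. CXCL5 had 0, 2 and 0 counts in vehicle, 0, 1 and 0 in erastin-R and 3, 1 and 3 in RSL3-R libraries. CX3CL1, the membrane-anchored ligand of CX3CR1, had 2, 3 and 1 counts in vehicle, 0, 2 and 2 in erastin-R and 5, 3 and 4 in RSL3-R libraries. In a fit without the filter on low counts, CXCL5 and CX3CL1 passed in none of the comparisons (edgeR adjusted p of 0.347 to 0.847 over 6 tests). CXCL6 had 0 counts in all 9 libraries, which allows up to 0.174 to 0.195 CPM. CXCL5 and CXCL6 lie between CXCL8 and CXCL3 on chromosome 4, and their printed promoters hold the same GGAATTTCC as those of the expressed neighbors.

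Levels of different genes were compared as CPM per kb of exonic length. In vehicle, CXCL1 led with 6.46 CPM per kb, followed by CXCL2 at 5.34 and CXCL8 at 5.21. The libraries of CXCL1 (6.19 to 6.72) overlapped those of CXCL2 (4.69 to 6.40), which overlapped those of CXCL8 (4.75 to 5.53). CXCL3 at 1.34 and CCL20 at 1.25 overlapped, as did CXCL16 at 0.497 and CCL5 at 0.267.

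In erastin-R cells the order was CXCL8 at 15.1, CXCL2 at 11.3, CXCL1 at 5.01, CCL20 at 3.30 and CXCL3 at 2.24 CPM per kb, with no overlap between neighbors, while CCL5 at 0.362 and CXCL16 at 0.219 overlapped. In RSL3-R cells it was CXCL8 at 32.8, CXCL1 at 25.8 and CXCL2 at 23.7, again without overlap. CCL20 at 3.65 and CXCL3 at 2.75 overlapped each other, and CXCL16 at 0.488 did not overlap CCL5 at 0.324. CXCL1 thus took the highest level in vehicle, the third in erastin-R and the second in RSL3-R cells.

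The 10 members together reached 20.4 ± 1.35 CPM per kb in vehicle, 37.5 ± 2.12 in erastin-R and 89.6 ± 3.19 in RSL3-R libraries (SD, n = 3). Of this sum, CXCL8 made up 25.6% in vehicle, 40.2% in erastin-R and 36.5% in RSL3-R libraries. CXCL1 made up 31.8%, 13.3% and 28.9%, and CXCL2 26.1%, 30.0% and 26.4%. CXCL3 made up 6.57%, 5.97% and 3.07%, and CCL20 6.11%, 8.84% and 4.07%. CXCL8, CXCL1 and CXCL2 held most of the sum in every group.

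**Figure D3:**
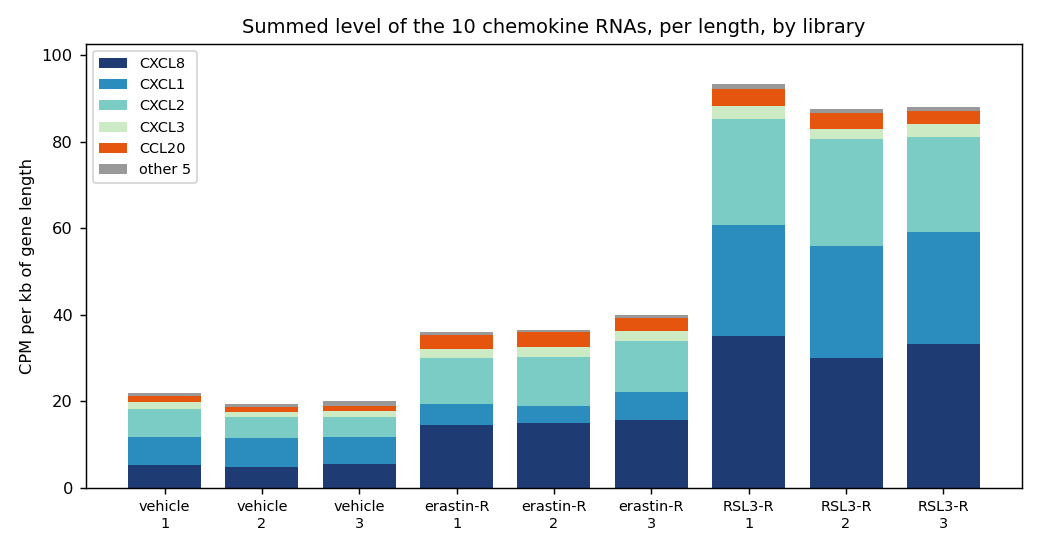
Summed level of the 10 chemokine genes in CPM per kb of exonic length (y axis) in each of the 9 libraries (x axis), stacked by gene. The bars rise from about 20.4 in vehicle to 37.5 in erastin-R and 89.6 in RSL3-R libraries, and the CXCL1 segment is a smaller part of the erastin-R bars than of the others.

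The ratio of CXCL1 to CXCL2 counts within a library does not depend on library size. It was 0.876 to 1.18 in vehicle (mean 1.06), 0.302 to 0.462 in erastin-R (mean 0.384) and 0.905 to 1.02 in RSL3-R libraries (mean 0.945). All erastin-R ratios lay below all others, which is the most extreme order for 3 against 3 libraries, where a two-sided exact permutation test cannot go below p = 0.1 (0.12 after Benjamini-Hochberg adjustment over 12 comparisons of 4 ratios). CXCL8 to CXCL2 was 1.27 to 1.79 in vehicle, 2.02 to 2.06 in erastin-R and 1.83 to 2.30 in RSL3-R libraries. CXCL3 to CXCL2 was 0.358 to 0.404, 0.283 to 0.302 and 0.132 to 0.210, lowest in RSL3-R cells.

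Reads of closely related genes can be hard to assign. Of all 50-base words of their annotated transcripts, 4.81% in CXCL1, 12.5% in CXCL2 and 6.01% in CXCL3 also occur in another of these 3 genes, and 0% in CXCL8 and CCL20. CCL5 shares 15.2% of its words with other genes. The study kept uniquely mapped reads. The part of shared sequence in the CXCL1 to CXCL2 ratio was not tested.

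**Figure D4:**
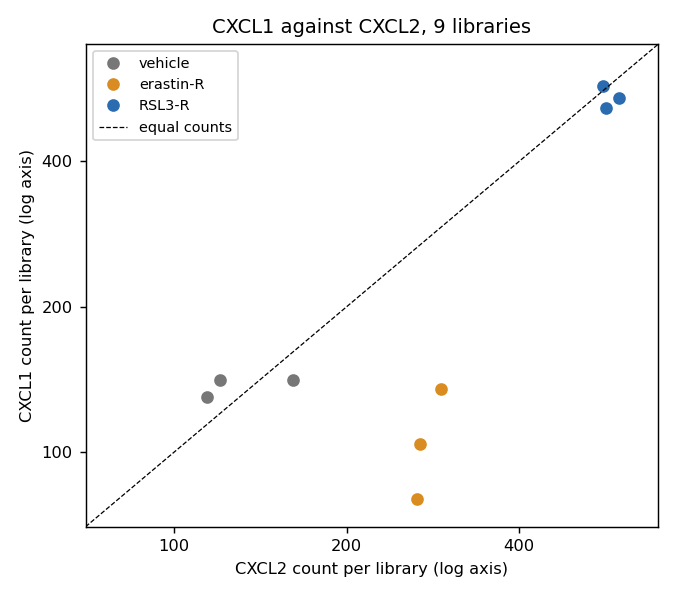
Counts of CXCL1 (y axis) against CXCL2 (x axis) in the 9 libraries, both axes logarithmic, colored by group. The vehicle and RSL3-R libraries lie near a ratio of 1 (0.876 to 1.18), and the 3 erastin-R libraries lie below it, at 0.302 to 0.462.

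On chromosome 4, 34 genes lie in the cluster or within 500 kb on either side, of which 9 passed the filter, the members CXCL8, CXCL1, CXCL3 and CXCL2 and 5 other genes. Of these 5, AREG (amphiregulin, a ligand of EGFR) rose in erastin-R cells by 1.32 on the log2 scale (SE 0.08, edgeR adjusted p = 2.44e-08) and had a value of 0.82 (SE 0.08) in RSL3-R cells, under the fold minimum. EREG (epiregulin) had -0.21 (SE 0.10) and 0.54 (SE 0.10). MTHFD2L, a mitochondrial folate enzyme that lies just beyond CXCL2, had 0.47 and 0.33 (SE 0.11 each). ANKRD17 had 0.21 and 0.08 (SE 0.09 each), and RASSF6 had -0.46 (SE 0.40) and -0.09 (SE 0.39). None of these 5 was called in RSL3-R cells.

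**Figure D5:**
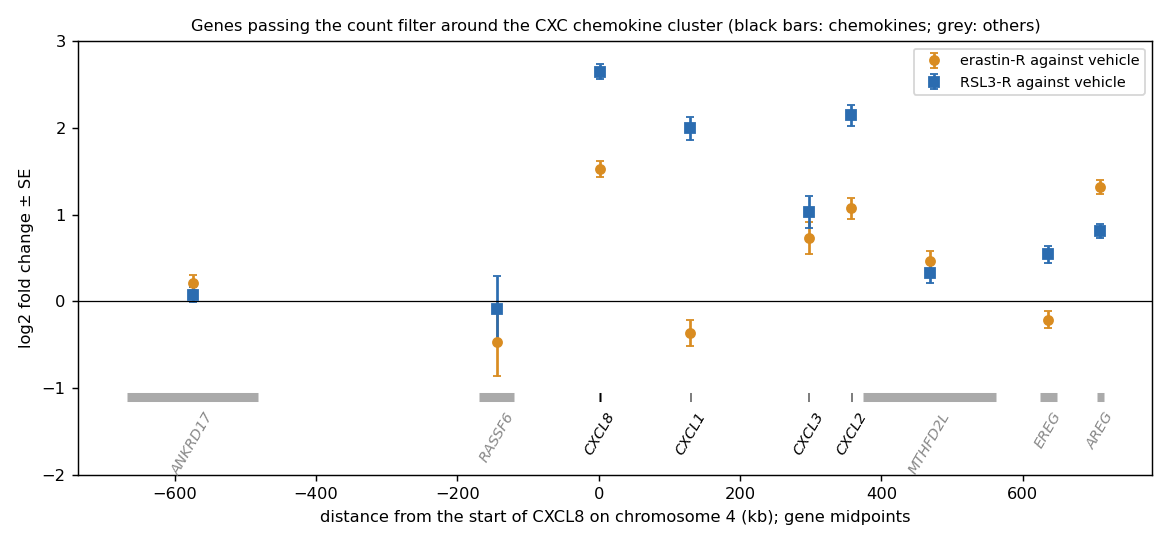
Log2 fold change with its standard error (y axis) in erastin-R and RSL3-R cells compared with vehicle for the 9 tested genes in and around the chemokine cluster, by distance from the start of CXCL8 in kb (x axis), with bars below marking the extent of each gene. CXCL1, with -0.36 in erastin-R cells, lies between CXCL8 at 1.53 and CXCL3 at 0.73, and of the genes outside the family only AREG is called, at 1.32 in erastin-R cells.

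Among all 48 chemokine ligands listed, 46 were in the tables and 10 had at least 10 counts in a library, the 7 members and CXCL11, CCL26 and CCL28. Of these 10, 3 rose and 3 fell in erastin-R cells, 5 rose and 0 fell in RSL3-R cells, and 5 were higher and 0 lower in RSL3-R than in erastin-R cells. The medians were 0.30, 0.65 and 0.97 on the log2 scale. Over all tested genes, 13.4%, 10.1% and 10.3% were called in these comparisons. CXCL11, an interferon-inducible ligand of CXCR3, fell in erastin-R cells, from 0.771 ± 0.111 to 0.161 ± 0.0892 CPM (log2 fold change -2.19, SE 0.49, edgeR adjusted p = 0.00189), and was at 0.898 ± 0.174 CPM in RSL3-R cells, 2.41 above erastin-R (SE 0.48, adjusted p = 0.000953). It had only 1 to 18 counts per library, and its erastin-R mean lay below the limit of 0.174 to 0.195 CPM that a count of 0 allows.

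CCL28, a mucosal chemokine that binds CCR10 and CCR3, was at 14.9 ± 1.88 CPM in vehicle, 4.77 ± 0.392 in erastin-R and 8.72 ± 0.445 in RSL3-R libraries. It fell in erastin-R cells (log2 fold change -1.64, SE 0.13, edgeR adjusted p = 2.78e-07), and its value for RSL3-R was -0.77 (SE 0.13), under the fold minimum. CCL26, an eotaxin, was not called in any comparison, at 1.46, 1.65 and 1.03 CPM. CXCL16, CXCL11 and CCL28 were thus the ligands that fell in erastin-R cells, CXCL16 and CXCL11 on few counts, where CXCL8, CXCL2 and CCL20 rose.

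Of 23 chemokine receptors listed, 8 had at least 10 counts in a library and 5 were tested. In erastin-R cells 1 rose and 2 fell, in RSL3-R cells 1 rose and 1 fell, and 1 was higher in RSL3-R than in erastin-R cells. Their medians were -0.41, 0.47 and 0.60. The share of all tested genes called was 13.4%, 10.1% and 10.3% in these comparisons. CXCR4, the receptor of CXCL12, was at 3.78 ± 0.156 CPM in vehicle and fell to 0.885 ± 0.618 in erastin-R (log2 fold change -2.07, SE 0.38, edgeR adjusted p = 0.000444) and 1.36 ± 0.515 in RSL3-R cells (-1.47, SE 0.36, adjusted p = 0.00401). CCRL2, an atypical receptor, was at 14.9 ± 0.0543, 4.51 ± 0.408 and 12.7 ± 0.819 CPM and fell in erastin-R cells (-1.73, SE 0.12, adjusted p = 6.1e-08), with -0.24 in RSL3-R cells (SE 0.11, adjusted p = 0.0845).

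CCR10 rose in erastin-R cells by 1.07 (SE 0.34, edgeR adjusted p = 0.0172), and ACKR4, a scavenging receptor, rose in RSL3-R cells by 1.37 (SE 0.52, adjusted p = 0.0404) on 2 to 14 counts per library. The receptors of the neutrophil-attracting members and of CCL20 were not seen: CXCR1, CXCR2 and CCR6 had 0 counts in all 9 libraries. CXCR6, which binds CXCL16, had 1 to 14 counts, and CX3CR1 had 0 to 2.

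Of the 16 NF-κB subunits, inhibitors and kinases listed, all were tested and 1, NFKBIZ, was called. NFKBIZ encodes a nuclear IκB protein that is itself an NF-κB target. Its mean of 70.5 ± 2.60 CPM in vehicle compares with 146 ± 3.01 in erastin-R and 181 ± 4.22 in RSL3-R libraries, and it rose by 1.05 (SE 0.06, edgeR adjusted p = 7.31e-09) and 1.36 (SE 0.06, adjusted p = 4.45e-10) on the log2 scale. The medians of the 16 genes were 0.13 and 0.18 in these comparisons and 0.047 between the survivor groups. By edgeR's adjusted p alone, 7 of the 16 were higher and 3 lower in erastin-R cells, 7 higher and 1 lower in RSL3-R cells, and 6 higher and 4 lower in RSL3-R than in erastin-R cells, where 54%, 48.7% and 49.2% of all tested genes passed that threshold. With the fold minimum, edgeR called none of the 16 between the survivor groups. At that threshold 13.4%, 10.1% and 10.3% of all tested genes were called in the 3 comparisons.

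Of 16 cytokine and cytokine receptor genes listed, 11 were tested. In both survivor groups 3 rose and 0 fell compared with vehicle, and 2 were higher in RSL3-R than in erastin-R cells. Called genes were 13.4%, 10.1% and 10.3% of all tested genes. By edgeR's adjusted p alone, 5 were higher and 5 lower in erastin-R cells, the 5 lower all receptor genes. The counts were 6 higher and 2 lower in RSL3-R cells, and 7 higher and 0 lower between the survivor groups. Over all tested genes 54%, 48.7% and 49.2% passed that threshold. The medians of the 11 were 0.15, 0.24 and 0.43. IL1A was at 1.28 ± 0.180, 3.66 ± 0.240 and 23.1 ± 1.19 CPM and rose by 1.51 (SE 0.17, edgeR adjusted p = 6.68e-06) and 4.16 (SE 0.15, adjusted p = 1.15e-10). IL1B was at 20.7 ± 2.90, 65.0 ± 7.92 and 150 ± 4.35 CPM and rose by 1.65 and 2.86 (SE 0.11 each). IL6 was at 5.87 ± 0.963, 15.9 ± 0.775 and 31.8 ± 0.521 CPM and rose by 1.44 and 2.44 (SE 0.12 each). IL1A, IL1B, IL6, CXCL8 and CXCL2 thus shared the order of vehicle below erastin-R below RSL3-R, and TNF had 0 or 1 count in every library.

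All 10 AP-1, C/EBP and related factors listed were tested. In erastin-R cells 5 rose and 0 fell, in RSL3-R cells 3 rose and 0 fell, and 1 was lower in RSL3-R than in erastin-R cells, with medians of 0.92, 0.38 and -0.37. The background of called genes was 13.4%, 10.1% and 10.3% of all tested genes. CEBPB was at 112 ± 6.11, 391 ± 100.3 and 211 ± 13.9 CPM and rose in erastin-R cells by 1.80 (SE 0.14, edgeR adjusted p = 2.18e-07), with 0.91 in RSL3-R cells. CEBPD was at 39.7 ± 3.24, 112 ± 24.4 and 30.2 ± 3.91 CPM, rose in erastin-R cells by 1.5 (SE 0.14) and was 1.89 lower in RSL3-R than in erastin-R cells (log2 fold change -1.89, SE 0.14, adjusted p = 2.26e-07). ATF3 rose by 1.77 and 1.78 (SE 0.16 each) and FOSB by 1.07 and 1.31 (SE 0.20 each). JUNB, named after its values were seen, rose by 1.19 and 1.20 (SE 0.08 each).

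Chemokine transcripts are short-lived, and 8 genes that act on the decay of such transcripts were listed and tested, with medians of 0.20, -0.29 and -0.35. In each survivor group 1 rose and 0 fell compared with vehicle, where 13.4% (erastin-R) and 10.1% (RSL3-R) of all tested genes were called. ZFP36 (tristetraprolin) rose in erastin-R cells by 1.1 (SE 0.09, edgeR adjusted p = 1.83e-07), with 0.20 in RSL3-R cells. ZC3H12A (regnase-1) rose in RSL3-R cells by 1.46 (SE 0.12, adjusted p = 3.18e-07), with 0.85 in erastin-R cells. Both proteins are known to promote the decay of inflammatory transcripts.

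Of 7 proteases and cofactors that shed or cleave chemokines, 6 were tested, with medians of -0.32, 0.46 and 0.58. In erastin-R cells 1 fell, in RSL3-R cells 1 rose, and 2 were higher in RSL3-R than in erastin-R cells. Among all tested genes 13.4%, 10.1% and 10.3% were called. MMP1 was at 3.88 ± 0.817, 1.99 ± 0.498 and 8.85 ± 1.31 CPM and rose in RSL3-R cells by 1.19 (SE 0.20, edgeR adjusted p = 0.000193), with -0.96 in erastin-R cells. MMP9 was at 1.87 ± 0.371, 0.545 ± 0.290 and 1.61 ± 0.716 CPM and fell in erastin-R cells (log2 fold change -1.75, SE 0.43, adjusted p = 0.00336). ADAM10 and ADAM17, the main sheddases of CXCL16 and CX3CL1, were named after their values were seen and were under the fold minimum, at -0.33 and 0.37 for erastin-R and at 0.25 and 0.95 for RSL3-R against vehicle.

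Over the 9 libraries, Pearson's r of log2 CPM with CXCL8 was 0.984 for CXCL2, 0.940 for CXCL3, 0.915 for CCL20 and 0.712 for CXCL1, and r of CXCL1 with CCL20 was 0.409. These values are descriptions of 3 groups of 3 libraries and follow mostly from the group means. The 5 protein-coding genes most like CXCL8 were PHGDH (r = 0.996), XPOT (0.995), CYTH3 (0.995), MOCOS (0.994) and SPIRE1 (0.994). PHGDH, the entry enzyme of serine synthesis, was at 18.5, 48.0 and 87.4 CPM in vehicle, erastin-R and RSL3-R cells. The 5 most like CXCL1 were SLC6A9 (0.996), GABRR2 (0.993), ACSS2 (0.991), PRNP (0.988) and NFE2L1 (0.986). SLC6A9, a glycine transporter, was at 10.8, 9.42 and 27.7 CPM in vehicle, erastin-R and RSL3-R cells. An order of groups shared with CXCL8 or CXCL1 follows from the choice of these genes by correlation.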

How the data were processed

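Poly-A-selected libraries of MDA-MB-231 cells were sequenced. The authors deposited a raw count per gene for each of 9 libraries, of uniquely mapped exonic reads according to the study's methods. The submitters' processing notes name HISAT2 2.0.5 and featureCounts 1.5.0-p3. The strand setting and genome build are not given in the sources used here. Gene coordinates were identical to those of GENCODE release 29 (GRCh38) for 58735 of 58735 genes. The authors also deposited FPKM values, which were not used.

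Groups were taken from the treatment labels. Members were found by gene name, and members and lists were chosen with earlier results of these data known. The counts were analyzed in R 4.3.3 with edgeR 4.0.16 (TMM, filterByExpr, glmQLFit and glmQLFTest in 1 model of all 9 libraries, no covariate). This model stands in for the Cufflinks test of the methods, which gene counts do not allow. The p values were adjusted by Benjamini-Hochberg over 16188 genes, with calls at a log2 fold change of 1 or more in size and an adjusted p under 0.05, and SEs came from the log2 fold change and F statistic. The common coefficient of variation was 8.56%. CPM used TMM-scaled library sizes, and log2 CPM a prior count of 3. The limits given for a count of 0 cover counting error only, while SDs and SEs include the spread between libraries. Alternatives were no filter, RLE factors, DESeq2 1.42.0, quantile normalization with limma 3.58.1, fits of 2 groups, a replicate block, each library left out, no minimum fold change and an unadjusted p. Genes named were all members, other ligands with at least 10 counts in a library, up to 4 called genes per list with the greatest change, tested genes near the chromosome 4 cluster and the 5 genes most correlated with CXCL8 and CXCL1. Scripts were tested on simulated data. Ratios were tested with Python 3.11.15 and scipy 1.17.1, and figures drawn with matplotlib 3.10.9. Promoters are from RefSeq (GRCh38.p14).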

Additional observations from a re-analysis of the deposited data

Results flagged for a closer look

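CXCL1 stood out because its values compared with vehicle had opposite signs in the 2 survivor groups and the difference between those groups was itself called. Compared with vehicle, its log2 fold change was -0.36 for erastin-R and 2.0 for RSL3-R, and the test of the difference itself, RSL3-R against erastin-R, gave 2.36 (SE 0.14, edgeR adjusted p = 1.82e-08), with all 3 RSL3-R libraries above all 3 erastin-R libraries. Only the RSL3-R side was called against vehicle.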

How the results depend on the processing

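CXCL8, CCL20, and CXCL1 in RSL3-R cells kept their direction and calls under every alternative run. Without a minimum fold change, 8735, 7879 and 7969 genes were called in erastin-R against vehicle, RSL3-R against vehicle and RSL3-R against erastin-R, beside 2162, 1635 and 1674 in the reported analysis, and CXCL3 joined the members called in erastin-R cells. With 1 library left out, genes called were 2043 to 2573, 1581 to 1779 and 1514 to 2143, and members called were 2 to 4, 4 to 5 and 3 to 4. The 2 in erastin-R cells, without vehicle replicate 3, lacked CXCL2 (0.98) and CXCL16 (-0.79). Quantile normalization gave 903 genes higher and 736 lower in RSL3-R against erastin-R cells, where the reported analysis gave 1111 and 563, and 809 and 785 beside 975 and 660 in RSL3-R against vehicle. Uncalled values that changed sign were CXCL16 in RSL3-R against vehicle (-0.29 to 0.35 over the left-out libraries, 0.35 without vehicle replicate 3, 0.06 and 0.11 without RSL3-R replicates 2 and 3), and CCL5 in RSL3-R against vehicle (-0.15 to 0.81, -0.15 without vehicle replicate 2) and against erastin-R (-0.43 to 0.014, 0.014 without RSL3-R replicate 1). The CCL5 value in erastin-R against vehicle was 0.0089 to 0.96 over the left-out libraries. CCL5 did not pass the filter when only RSL3-R and another group were fitted. The causes were not tested. Deviations from the group means had a mean correlation of -0.0049 over 9 same-numbered and 0.0026 over 18 other pairs of libraries. Same-numbered libraries were thus no more alike than others, which does not show whether they were prepared together. With the replicate block 2153, 1614 and 1652 genes were called, and the calls of the members did not change. Counts of 2 to 33 per library limit CXCL16 and CCL5, CXCL5 and CX3CL1 did not pass the filter and had adjusted p of 0.347 to 0.847 without it, and CXCL6 had no counts to test.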
